A study of Mus musculus with 6 samples.

Results

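The wounds compared here were given a hydrogel without cells (blank hydrogel) or a hydrogel seeded with unedited dendritic cells (control DCs), and the comparison asks what unedited DCs in a wound dressing go along with on day 10 after wounding. It rests on 2 of the 6 droplet libraries of the study, 1 library per condition. Barcodes with at least 300 genes, fewer than 100000 unique molecular identifiers (UMIs) and less than 10% mitochondrial UMIs were kept, which left 3403 cells from blank hydrogel wounds and 1948 cells from control DC wounds, 5351 of the 11032 cells kept in all 3 wound libraries. The remaining wound library, from hydrogels with Ndrg2-KO DCs, is given side by side as a value where it helps to place a level.

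The labels give neither strain, age nor sex. The methods describe C57BL/6J wild-type and diabetic db/db mice, and do not state which were sequenced; the link that the study draws to its wild-type healing curves is the reason to take them as wild-type. The methods give mice 6 weeks old, females and males assigned at random, with splinted full-thickness excisional skin wounds covered by a pullulan-collagen hydrogel. In the kept cells Xist, transcribed from the inactive X chromosome of females, had 15844 and 15307 UMIs, whereas the Y-linked genes Ddx3y, Eif2s3y and Uty had 0 UMIs in both libraries and Kdm5d had 2 and 1. Transcripts of male cells were thus all but absent from both libraries. Control DCs were cultured from mouse bone marrow; the labels call them untreated, whereas the study's methods describe nucleofection with non-targeting guides for its control DCs, and which of these was sequenced is not settled by the labels. The study names 5 mice per group, and whether their tissue was pooled into the sequenced suspension is not stated. The series text speaks of GFP+ cells sorted from parabiotic wounds, while the labels describe digested wound tissue with no sort. Features for eGFP and tdTomato held 0 UMIs in the kept cells of both libraries, so seeded DCs were not told apart from the animals' own cells.

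In a healing wound, neutrophils arrive first and release proteases and inflammatory cytokines, monocytes enter and become macrophages that clear the neutrophils, and fibroblasts then fill the defect with collagen-rich granulation tissue. Myofibroblasts are the contractile fibroblasts of this phase. Dendritic cells carry antigen to T cells and, depending on their state, promote or restrain inflammation.

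Each condition had 1 library, so no test between conditions was made and no p-value is given. All intervals are exact 95% intervals and cover counting error only, not the spread between animals. Those of gene levels treat each UMI as independent, so they leave out the spread between cells too. The kept cells held 34905741 UMIs with blank hydrogels and 29675507 with control DCs, and the median cell held 5603 and 10795 UMIs. Of the deposited barcodes, 84.5% and 71.9% passed the filters, and the median mitochondrial share was 1.26% and 1.80%. The libraries shared 2 kept barcodes. Because deeper cells show more genes, each cell was drawn to 1000 UMIs before cell types were called, which left out 65 and 25 shallower cells. A cell was then placed in the class whose list of 10 marker genes it matched best, with at least 3 markers.

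Wounds with control DCs held proportionally fewer neutrophils and more fibroblasts, macrophages and T cells than wounds with blank hydrogels. The shares of a library are tied, so a lower neutrophil share by itself raises the shares of the other classes. Numbers of cells per wound were not measured. Neutrophil-like cells, defined by markers such as S100a8, Csf3r and Cxcr2, made up 46.7% (45.0 to 48.4) of 3338 cells with blank hydrogels and 24.0% (22.1 to 25.9) of 1923 cells with control DCs. Their log2 ratio of shares was -0.96 (95% interval -1.11 to -0.81). Fibroblast-like cells, defined by fibrillar collagens, Dcn and Pdgfra, went the other way, from 10.9% (9.90 to 12.0) to 26.0% (24.1 to 28), a log2 ratio of 1.25 (1.05 to 1.45). Macrophage-like cells, defined by C1q genes, Mrc1 and Adgre1, made up 20.9% (19.5 to 22.3) and 26.8% (24.8 to 28.8), a log2 ratio of 0.36 (0.19 to 0.53) that was 0.15 with all deposited barcodes. There were 2.24 neutrophils per macrophage with blank hydrogels and 0.895 with control DCs. In the wound with Ndrg2-KO DCs 52.8% of cells were neutrophils and 9.54% fibroblasts, with 3.19 neutrophils per macrophage. Neutrophils of both wounds had close median depths (3426.5 and 3357 UMIs), as did fibroblasts (27995 and 30017.5 UMIs). Other classes differed more, such as the unassigned cells (10003.5 and 8124 UMIs).

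T cell-like cells numbered 69 (2.07%, 1.61 to 2.61) with blank hydrogels and 81 (4.21%, 3.36 to 5.21) with control DCs, a log2 ratio of 1.03 (0.55 to 1.51). Monocyte-like cells made up 5.78% and 4.16%, a log2 ratio of -0.47 (-0.87 to -0.09). Cells that matched DC markers such as Flt3, Ccr7 and Zbtb46 were rare in both wounds, with 18 cells (0.539%) and 7 cells (0.364%), and the interval of their log2 ratio ran from -2.07 to 0.76. A difference in the share of these cells was not detectable at this depth. Skin-defining types were scarce. Keratinocyte-like cells numbered 18 and 7, and the interval of their log2 ratio ran from -2.07 to 0.76. Endothelial-like cells numbered 6 (0.180%) and 15 (0.780%), a log2 ratio of 2.12 (0.67 to 3.77). The libraries thus describe epidermis and vessels by few cells, and whether digestion or capture lost such cells was not tested. No class could be given to 11.4% and 12.0% of the cells.

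**Figure D1:**
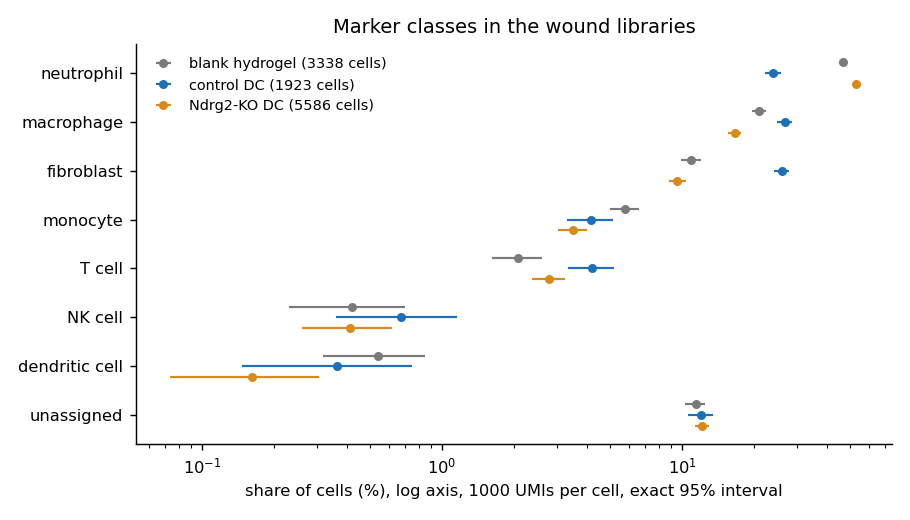
Share of cells in each marker class (x axis, percent, log scale) for the 3 wound libraries, each cell drawn to 1000 UMIs; points are shares and bars are exact 95% intervals that cover counting error only. Neutrophils sit at 46.7% with blank hydrogels against 24.0% with control DCs and fibroblasts at 10.9% against 26.0%, while the dendritic cell intervals overlap.

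The neutrophil share was lower and the macrophage and T cell shares were higher with control DCs among leukocytes alone as well. These shares are tied too, so the macrophage and T cell values are not independent of the neutrophil value. Among the 2552 and 1162 cells in leukocyte classes, neutrophils made up 61.1% (59.1 to 62.9) with blank hydrogels and 39.7% (36.8 to 42.6) with control DCs. Macrophages were 27.3% (25.6 to 29.1) and 44.3% (41.4 to 47.2) of leukocytes, and T cells 2.70% (2.11 to 3.41) and 6.97% (5.57 to 8.59). Monocytes, at 7.56% and 6.88%, had overlapping intervals. Ptprc encodes CD45, the common surface marker of leukocytes, and at least 1 of its UMIs was held by 74.7% (73.2 to 76.2) of cells with blank hydrogels and 61.7% (59.5 to 63.9) with control DCs. Among cells with a Ptprc UMI, neutrophils were at 50.3% and 31.1%, macrophages at 24.6% and 37.5%, and T cells at 2.61% and 6.69%.

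In the whole tissue, summed UMIs were scaled to 1000000 UMIs (CPM), and genes with at least 100 UMIs over both libraries were compared. Of 11916 such genes, 378 (3.17%) were at least 2-fold higher and 365 (3.06%) at least 2-fold lower with control DCs, around a median log2 ratio of 0.03. As a mean over cells, each scaled to 10000 UMIs, 1327 were higher and 176 lower around a median of 0.24. In a tissue sum, fewer cells of a type and less RNA per cell cannot be told apart. The fibroblast class alone held 31.6% of the UMIs with blank hydrogels and 53.8% with control DCs, while the neutrophil class held 18.8% and 6.0%. When both libraries were given the same mix of classes, 104 of the 378 higher genes and 79 of the 365 lower genes stayed past 2-fold on the same side, and 56 of the lower genes changed sign.

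Genes of the extracellular matrix were higher as a group with control DCs. Of 18 matrix protein genes, 14 were at least 2-fold higher and none were 2-fold lower, with a median log2 ratio of 1.11, against 0.03 over all genes. Their summed level was 28576 CPM with blank hydrogels, 61226 CPM with control DCs and 28185 CPM with Ndrg2-KO DCs. Col1a1, a chain of type I collagen (ENSMUSG00000001506, chromosome 11 from 94936224 to 94953042, GRCm38), was counted at 6948 and 15668 CPM, a log2 ratio of 1.17. Col3a1, the type III collagen of early granulation tissue, was at 7354 and 15865 CPM. Postn, the matricellular protein periostin (ENSMUSG00000027750, chromosome 3 from 54361109 to 54391037), was at 614 and 1950 CPM, a log2 ratio of 1.67 (1.65 to 1.69), and Eln, elastin, at 78.2 and 204 CPM. Fibronectin (Fn1) stood apart from the collagens at 1321 and 1179 CPM, and Col12a1 was at 169 and 194 CPM. At the same class mix the median of the list was 0.36. None of 12 genes that modify and crosslink collagen, such as the lysyl oxidases and prolyl hydroxylases, passed 2-fold, and their median of 0.69 became -0.03 at the same class mix.

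Neutrophil genes made up the opposite block. Of the 10 neutrophil markers, 9 were at least 2-fold lower with control DCs with a median log2 ratio of -1.29, which became 0.12 at the same class mix. These markers also define the class that is evened out, so their move at the same mix follows largely from the method. Their summed level was 21914 CPM with blank hydrogels, 8868 CPM with control DCs and 27953 CPM with Ndrg2-KO DCs. S100a8, a subunit of calprotectin (ENSMUSG00000056054, chromosome 3 from 90668978 to 90670035), was counted at 8806 and 3427 CPM, a log2 ratio of -1.36 (-1.37 to -1.35) that became 0.24 at the same class mix. Csf3r, the G-CSF receptor, was at 140 and 46.8 CPM, and Mmp9, the gelatinase of neutrophil granules, at 168 and 31.3 CPM. The log2 ratio of Mmp9 was -2.42 as found and -1.39 at the same class mix, and within the macrophage class the gene was at 239 and 17.3 CPM, with 50.3% and 48.0% of its UMIs there in 5 cells. Retnlg, a marker of young circulating neutrophils, was the exception at 138 CPM with blank hydrogels and 253 CPM with control DCs, with 20.7% of the latter UMIs in 5 cells, and its log2 ratio of 0.87 was 2.49 at the same class mix.

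Inflammatory mediators of activated neutrophils were lower in the tissue sum. Of 12 such genes, 7 were at least 2-fold lower and none 2-fold higher, and their sum was 19769 CPM with blank hydrogels, 10233 CPM with control DCs and 36697 CPM with Ndrg2-KO DCs. Ccl3, a chemokine that attracts monocytes, was counted at 1292 and 446 CPM (log2 ratio -1.53), and Ccl4 at 2100 and 880 CPM. Il1b, interleukin-1 beta, was at 1750 and 687 CPM, Tnf at 446 and 199 CPM, and the inflammasome sensor Nlrp3 at 581 and 252 CPM. Hcar2, a receptor for ketone bodies and niacin, was at 320 and 88.8 CPM and, outside the list, Il23a, a subunit of interleukin-23, at 30.1 and 9.60 CPM, with a log2 ratio of -1.65 that was -0.14 at the same class mix. Ptgs2, which encodes cyclooxygenase-2, had close levels of 884 and 943 CPM. The median of the list was -1.19 with the cells as found and -0.12 at the same class mix, where Ccl4 (log2 ratio 0.20) and Nlrp3 (0.01) no longer stood lower.

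**Figure D2:**
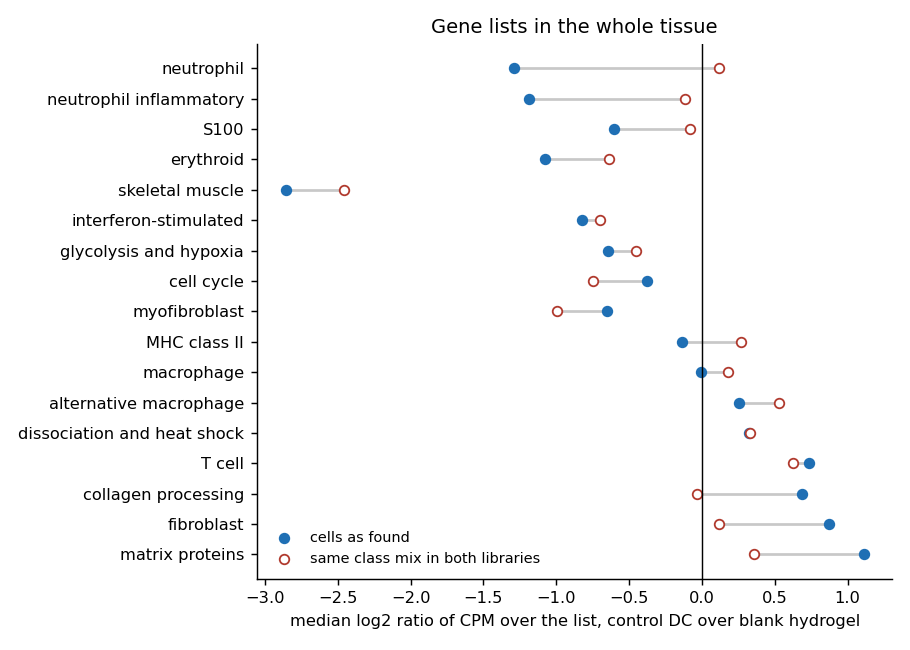
Median log2 ratio of CPM, control DC over blank hydrogel, for 17 gene lists in the whole tissue (x axis); filled points use the cells as found and open points give both libraries the same class mix. The neutrophil lists (-1.29 and -1.19) and collagen processing (0.69) move close to 0 at the same mix, whereas interferon-stimulated (-0.70), myofibroblast (-0.99) and T cell (0.62) genes keep their side. The neutrophil list at -1.29 also defines its class, so its move follows largely from the method.

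Some programmes had a negative median log2 ratio at both mixes, with few or no members past 2-fold. Interferon-stimulated genes had a median log2 ratio of -0.82 over 12 genes, 2 of them at least 2-fold lower, and of -0.70 at the same class mix. The antiviral gene Rsad2 was at 65.6 and 32.1 CPM, while Oasl1 was on the other side at 15.8 and 21.1 CPM. Genes of glycolysis and hypoxia had a median of -0.65 over 16 genes and of -0.45 at the same mix. The glycolytic enzyme Pgk1 was at 379 and 219 CPM and Gapdh at 935 and 598 CPM. Egln3 had a log2 ratio of -1.11 that was -0.39 at the same mix. Hk2, a hexokinase at 251 and 393 CPM, Ndrg1 and Adm were on the other side, with log2 ratios of 0.65, 0.50 and 0.73. Arg1, which breaks down arginine (ENSMUSG00000019987, chromosome 10 from 24915221 to 24927484), was at 630 CPM with blank hydrogels, 206 CPM with control DCs and 834 CPM with Ndrg2-KO DCs. Spp1, osteopontin, was at 2313, 846 and 3515 CPM in the same order. Both had negative log2 ratios at the same class mix as well, of -1.25 for Arg1 and -0.58 for Spp1.

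Of 12 genes of mature DCs in the whole tissue, 1 was at least 2-fold higher and 3 at least 2-fold lower, and their median log2 ratio of -0.24 was 0.07 as a mean over cells. The lower ones were Ccr7, at 48.6 and 24.0 CPM, Ccl22, at 20.0 and 8.46 CPM, and Il4i1, an amino acid oxidase, at 10.9 and 2.02 CPM, with at least 40% of the Il4i1 UMIs of each library in 5 cells. At the same class mix their log2 ratios were -0.51, -0.73 and -1.92. Ccl5, the higher member, is also made by T cells and NK cells.

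Growth factors did not move as 1 group, with 2 of 18 genes at least 2-fold higher and 2 at least 2-fold lower. Igf1, insulin-like growth factor 1, was at 91.9 and 229 CPM, a log2 ratio of 1.32 that was 0.93 at the same class mix. Hbegf, a ligand of the EGF receptor that acts on keratinocytes, was at 80.3 and 151 CPM. Vegfa, the central angiogenic factor, was at 160 and 194 CPM with a log2 ratio of 0.28 (0.23 to 0.34). Pdgfb and Tgfb1, which recruit and activate fibroblasts, were at 18.4 and 9.13 CPM and at 197 and 138 CPM. The log2 ratio of Pdgfb was -1.01 as found and -0.71 at the same class mix. Interleukin-6 (Il6), mostly from fibroblasts here, was at 256 and 441 CPM and was close within the fibroblast class, at 759 and 778 CPM.

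Several of the highest ratios belonged to genes whose UMIs lay mostly in the fibroblast class. Saa1, an acute-phase protein, was at 3.07 and 24.7 CPM (log2 ratio 3.01) and Hmcn1, hemicentin-1 of the matrix, at 6.25 and 39.5 CPM. Angptl1, C1qtnf3, Ptn (the heparin-binding growth factor pleiotrophin) and the chemokines Cxcl14 and Cxcl13 had log2 ratios between 2.16 and 2.62. Ppbp, a platelet and macrophage chemokine, was lower, at 37.0 and 2.53 CPM, with 106 and 22 cells holding its UMIs. Other top ratios came from single cells. Of the Il22 UMIs with control DCs, 98.8% lay in 1 cell, as did 99.5% of Cfd (adipsin), and 98.4% of Igkc (an antibody light chain) with blank hydrogels, so these values describe single cells and not the tissue.

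**Figure D3:**
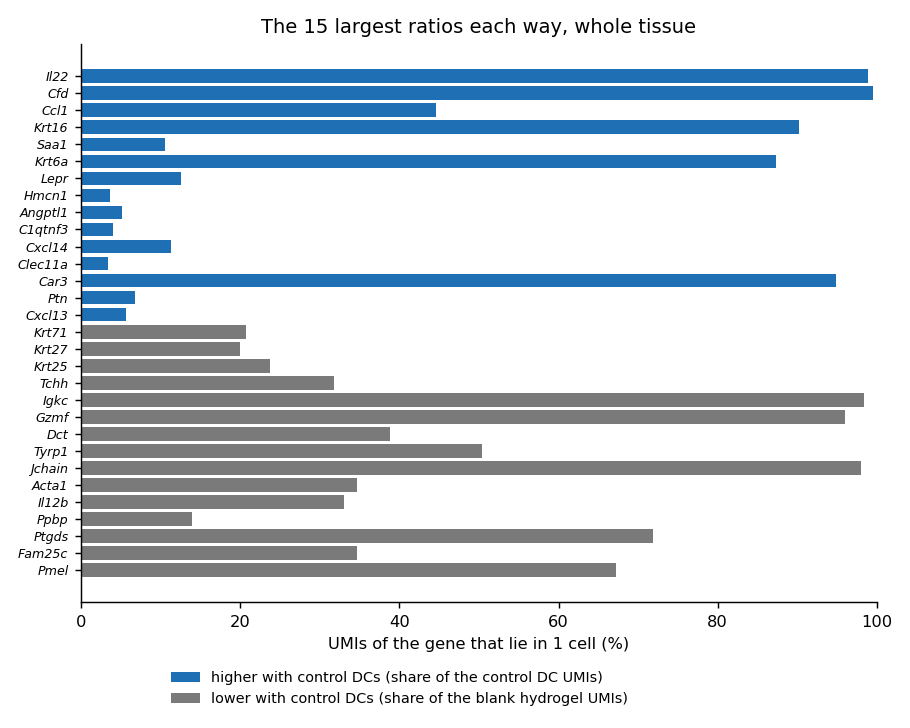
Share of a gene's UMIs that lay in the 1 cell with most of them (x axis, percent), for the 15 highest and 15 lowest ratios in the whole tissue among genes with at least 200 UMIs in 1 library; blue bars use the control DC library, grey bars the blank hydrogel library. Il22, Cfd and Igkc reach 98.8%, 99.5% and 98.4%, whereas Hmcn1 (3.58%), C1qtnf3 (4.03%), Angptl1 (5.20%), Cxcl13 (5.64%) and Ptn (6.79%) stay low.

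Traces of other tissue differed between the libraries and stand beside these results. Haemoglobin genes summed to 3131 CPM with blank hydrogels, 1478 CPM with control DCs and 8684 CPM with Ndrg2-KO DCs. Their median log2 ratio of -1.08 turned to 0.37 when all deposited barcodes were used. Skeletal muscle genes, of which 9 of 10 were at least 2-fold lower, summed to 86.9 and 10.9 CPM, with 84.5% of the Acta1 UMIs with blank hydrogels in 5 cells. Genes of the hair follicle and of melanocytes were also lower. Krt71 and Krt25, keratins of the hair follicle sheath, had 3235 and 1 UMIs and 3044 and 59 UMIs, and Dct, of melanin synthesis, had 1330 and 37 UMIs, with 86.3%, 88.8% and 99.7% of the UMIs with blank hydrogels in 5 cells. Immediate early and heat shock genes, which also mark the digestion of tissue, were above 0 in 12 of 13 cases, against 53.9% of all genes, with a median of 0.33. The part of blood, muscle, hair follicle and tissue digestion in the results above was not tested.

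Among cells with a Ptprc UMI, the list medians of T cell and of alternative macrophage genes were on the side of control DCs. Neutrophil markers, which also define their class, had a median log2 ratio of -0.76, which became 0.14 at the same class mix. Of 10096 genes compared, 161 (1.59%) were at least 2-fold higher and 192 (1.9%) at least 2-fold lower, around a median of 0.05, and 296 and 123 as a mean over cells around a median of 0.17. All 10 T cell markers were at least 2-fold higher, with a sum of 156 CPM with blank hydrogels, 393 CPM with control DCs and 250 CPM with Ndrg2-KO DCs. Their median log2 ratio was 1.35 with the cells as found and 0.66 at the same class mix, where none of the 10 passed 2-fold. Cd3g, part of the T cell receptor complex, was at 22.1 and 49.4 CPM and Trac, its alpha chain constant region, at 12.4 and 31.3 CPM. Cd4, the co-receptor of helper T cells that macrophages also carry (ENSMUSG00000023274, chromosome 6 from 124864692 to 124888221), was at 5.21 and 22.3 CPM, a log2 ratio of 2.10 (1.78 to 2.42) over 70 and 119 cells, and of 1.39 at the same class mix. The macrophage class of the whole tissue held 34 and 115 Cd4 UMIs, at 3.69 and 16.2 CPM. Trdc, the constant region of gamma delta T cells, was on the other side at 11.3 and 3.09 CPM, from only 25 and 7 cells. Foxp3 and Ctla4, regulatory T cell genes, were at 3.0 and 4.56 CPM and at 13.3 and 14.7 CPM, and their log2 ratios at the same class mix were -0.10 and -0.48.

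Of 12 alternative macrophage genes, 5 were at least 2-fold higher and none 2-fold lower in cells with a Ptprc UMI, with a median of 0.85 that became 0.56 at the same class mix. Arg1 was the member on the other side, at 888 and 452 CPM. Among the higher genes were the lectin receptor Clec10a, at 152 and 395 CPM, and the hyaluronan receptor Lyve1, at 32.2 and 104 CPM. Cd209d, another lectin receptor of tissue macrophages and not on the list, was at 33.1 and 125 CPM. The haemoglobin scavenger receptor Cd163 was at 117 and 271 CPM, and its log2 ratio at the same class mix was 0.80, under 2-fold. Mrc1, the mannose receptor, was at 685 and 1021 CPM, with a log2 ratio of 0.58 that was 0.23 at the same class mix. Retnla was at 80.2 and 161 CPM, but its ratio changed side when Ptprc was read after drawing each cell to 1000 UMIs. Genes of antigen presentation on MHC class II summed to 5429 and 7933 CPM with 6 of 8 members above 0, against 57.9% of all genes, and none at 2-fold; H2-Aa was at 1065 and 1594 CPM. The costimulatory genes Cd86, at 75.8 and 108 CPM, and Cd83, at 109 and 172 CPM, had log2 ratios of 0.51 and 0.66, whereas Ccr7, the receptor that guides mature DCs to lymph nodes, was at 58.8 and 44.4 CPM.

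Single mediators of leukocytes differed in both directions. Hbegf was at 82.2 and 234 CPM (log2 ratio 1.51) and was held by 365 and 342 cells, whereas Ereg, another EGF receptor ligand, was at 46.7 and 3.79 CPM, with 54.4% of the UMIs with blank hydrogels in 5 cells. Csf1, the growth factor of macrophages, was at 189 and 58.7 CPM, with a log2 ratio of -1.69 that was -0.83 at the same class mix. Ccl8, a monocyte chemokine made by resident macrophages, was at 1640 and 3676 CPM, with a log2 ratio of 1.16 that was 0.76 at the same class mix. Ccl5 was at 96.0 and 335 CPM, and its log2 ratio of 1.80 became 1.04 without the 5 cells with most of its UMIs in each library. Il10, an anti-inflammatory cytokine, was at 109 and 162 CPM, a log2 ratio of 0.57 (0.49 to 0.65). Vegfa was at 164 and 242 CPM.

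Within the macrophage class, 697 and 515 cells with similar median depths of 12843 and 13006 UMIs were compared. Of 8042 genes, 46 (0.572%) were at least 2-fold higher and 109 (1.36%) at least 2-fold lower with control DCs, around a median of -0.06. Of the 12 alternative macrophage genes, 1 was at least 2-fold higher and 1 at least 2-fold lower, with 10 above 0 and a median of 0.53 (39.6% of all genes were above 0). Among single genes, Cd209d was at 71.3 and 210 CPM (log2 ratio 1.56, 1.43 to 1.69), Lyve1 at 76.6 and 184 CPM, Clec10a at 348 and 685 CPM and Cd209f at 113 and 213 CPM. Vcam1, an adhesion molecule, was at 68.0 and 203 CPM and Ccl8 at 3957 and 6716 CPM. MHC class II genes were above 0 in 8 of 8 cases with a median of 0.35, none past 2-fold, among them Cd74, the invariant chain, at 2628 and 3651 CPM.

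On the lower side stood, among others, Arg1, Spp1, Cd36, Nos2 and Ptges. Arg1 was at 1434 and 501 CPM (log2 ratio -1.52, -1.57 to -1.46), Spp1 at 2686 and 1004 CPM and the scavenger receptor Cd36 at 344 and 132 CPM. Nos2, the inducible nitric oxide synthase, was at 30.7 and 4.50 CPM in 45 and 12 cells, and Ptges, which makes prostaglandin E2, at 69.9 and 7.45 CPM in 82 and 26 cells. Ppbp was at 94.0 and 1.97 CPM, a log2 ratio of -5.58, from 68 and 11 cells, and 77.4% of the Cxcl5 UMIs with blank hydrogels lay in 5 cells. In the Ndrg2-KO DC wound Arg1 was at 1006 CPM, Ppbp at 21.9 CPM and Nos2 at 52.5 CPM.

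The list medians of glycolytic and interferon-stimulated genes were negative within macrophages. Of 16 glycolysis and hypoxia genes, 3 were at least 2-fold lower and 1 at least 2-fold higher, with a median of -0.67. The glycolytic enzyme Pgk1 was at 508 and 261 CPM, Ldha, lactate dehydrogenase, at 484 and 312 CPM, and the oxygen sensor Egln3, induced by hypoxia, at 27.0 and 8.57 CPM. Vegfa, another gene that hypoxia induces, was on the other side at 230 and 291 CPM. Interferon-stimulated genes had a median of -0.58 over 12 genes; Ifit1 was at 31.0 and 8.71 CPM, but Oasl1 at 39.3 and 71.8 CPM. Of 9 cell cycle genes 7 were at least 2-fold lower, on few UMIs. Mki67 had 172 and 79 UMIs and Top2a 69 and 15, and the log2 ratio of Top2a of -1.83 became -0.21 without the 5 cells with most of its UMIs.

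Heat shock and immediate early genes were above 0 in 13 of 13 cases within macrophages, against 39.6% of all genes, and 3 of them were at least 2-fold higher. Hspa1a, an inducible chaperone (ENSMUSG00000091971, chromosome 17 from 34969190 to 34972156), was at 311 and 896 CPM, and its near-identical neighbour Hspa1b, with which reads can be shared, at 206 and 622 CPM. Neutrophil markers summed to 1619 CPM with blank hydrogels and 877 CPM with control DCs within this class, with 6 of 10 at least 2-fold lower. They include S100a8, at 304 and 97.8 CPM, and genes such as Mmp9 and Clec4d. How much of these transcripts macrophages made was not tested. The part of free RNA, doublets and tissue digestion in the macrophage values was not tested.

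**Figure D4:**
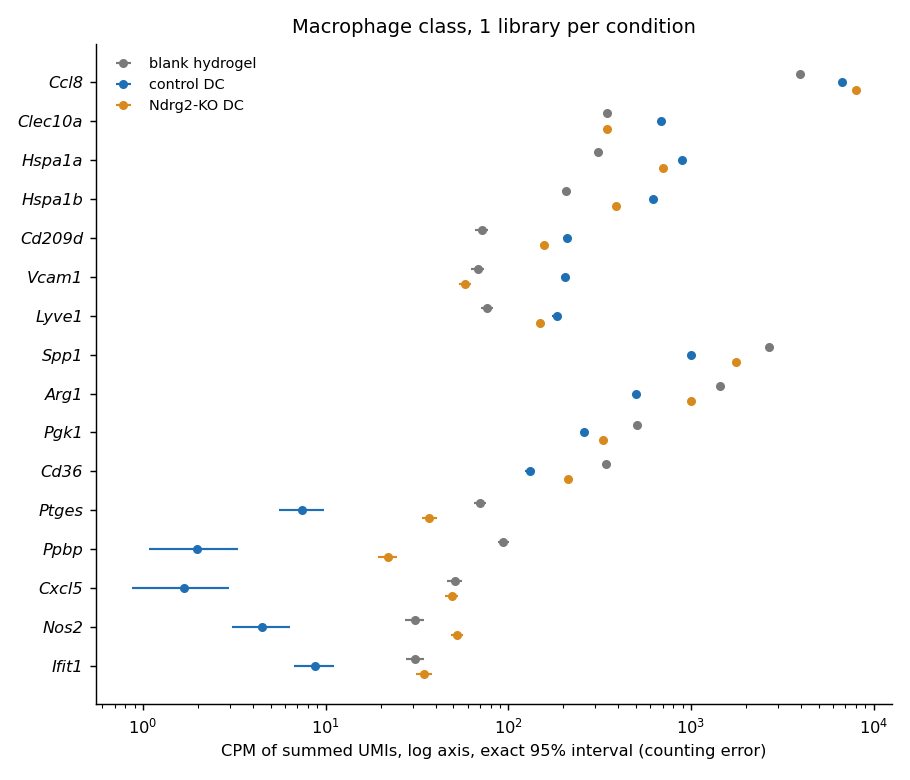
CPM of summed UMIs (x axis, log scale) of 16 genes within the macrophage class of the 3 wound libraries, with exact 95% intervals that cover counting error only. Clec10a, Cd209d, Vcam1 and Lyve1 lie higher with control DCs than with blank hydrogels, and Spp1, Arg1, Pgk1, Cd36, Ptges, Ppbp, Cxcl5, Nos2 and Ifit1 lie lower.

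Within the neutrophil class, the inflammatory genes lay on both sides of 0, with 6 of 12 above and 6 below. The class held 1558 and 461 cells with median depths of 3426.5 and 3357 UMIs. Of 4267 genes, 34 (0.797%) were at least 2-fold higher and 227 (5.32%) at least 2-fold lower, around a median of -0.23. None of the 12 inflammatory genes passed 2-fold in either direction, and their median was -0.03. Cxcl2, the main neutrophil-attracting chemokine here, was at 36203 and 32889 CPM, Il1b at 6663 and 7056 CPM, Ccl3 at 5765 and 4742 CPM and Nlrp3 at 2242 and 2495 CPM. Cxcl3 was higher, at 1467 and 2429 CPM, and the adhesion molecule Icam1 and Csf1 were lower, at 531 and 323 CPM and at 658 and 349 CPM.

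Interferon-stimulated genes were lower in neutrophils too, with 5 of 10 at least 2-fold lower, none above 0, against 29.9% of all genes in the class, and a median of -1.03. Isg15, a ubiquitin-like protein, was at 266 and 167 CPM (log2 ratio -0.67, -0.85 to -0.49), Rsad2 at 100.2 and 51.1 CPM and Irf7 at 69.6 and 35.9 CPM. Stefin A genes, protease inhibitors of neutrophils whose near-identical copies can share reads, had 3 of 8 members at least 2-fold higher and a median of 0.68. Stfa2 was at 177 and 452 CPM and its copy BC100530 at 199 and 495 CPM, but 52.0% of the Stfa2 UMIs with control DCs lay in 5 cells and its log2 ratio of 1.35 was 0.64 without them. Arg1 was at 183 and 15.2 CPM, of which 81.5% with control DCs lay in 1 cell. T cell markers, which neutrophils should lack, were lower in 6 of 6 measured genes, 5 of them by at least 2-fold, with sums of 32.9 and 7.86 CPM.

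Within the fibroblast class, the differences in contractile and matrix genes were not of 1 direction. The class held 365 and 500 cells with median depths of 27995 and 30017.5 UMIs. Of 9683 genes, 76 (0.785%) were at least 2-fold higher and 182 (1.88%) at least 2-fold lower. Of 18 matrix protein genes, some of which also define the class, 2 were at least 2-fold higher and none lower, with a median of 0.36. These were the basement membrane collagens Col4a1, at 208 and 421 CPM, and Col4a2, at 84.2 and 183 CPM. Without the highest 6% of doublet scores their log2 ratios of 1.02 and 1.12 were 0.48 and 0.54, under 2-fold. Endothelial markers were higher in the same class, with sums of 55.9 and 103 CPM, and their part in the Col4a1 and Col4a2 values was not tested. Postn was at 1921 and 3601 CPM (log2 ratio 0.91, 0.88 to 0.93), while Fn1 was at 2122 and 1772 CPM and Col12a1 at 528 and 358 CPM. Lox, lysyl oxidase, was at 875 and 860 CPM.

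Myofibroblast genes were lower, with 5 of 8 at least 2-fold lower and a median of -1.37. Keratinocyte markers were lower in the same class, with sums of 68.1 and 33.2 CPM and 5 of 9 at least 2-fold lower, as was the dermal papilla gene Crabp1, and the part of hair follicle cells in the myofibroblast values was not tested. Acta2, smooth muscle actin (ENSMUSG00000035783, chromosome 19 from 34241090 to 34255590), was at 273 and 67.6 CPM (log2 ratio -2.01, -2.11 to -1.91), with 39.3% and 61.4% of its UMIs in 5 cells, and its log2 ratio was -2.67 without them. Tagln was at 150 and 48.3 CPM, Tpm2, a tropomyosin, at 159 and 48.0 CPM, Myl9 at 31.3 and 11.3 CPM and Cnn2 at 70.9 and 29.3 CPM. Lrrc15 and Cthrc1, which mark matrix-producing fibroblasts of scars, had close levels, at 178 and 175 CPM and at 760 and 772 CPM, with log2 ratios of -0.02 (-0.11 to 0.06) and 0.02 (-0.02 to 0.06). In the whole tissue the myofibroblast list had a median of -0.65 but a sum of 730 and 787 CPM, so median and sum differed in sign. In the Ndrg2-KO DC wound Acta2 was at 106 CPM and Tpm2 at 90.6 CPM.

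Several secreted factors were higher in fibroblasts of control DC wounds. Cxcl14 was at 60.4 and 255 CPM (log2 ratio 2.08), Cxcl13, a B cell chemokine, at 168 and 445 CPM, Ptn at 74.1 and 211 CPM and C1qtnf3 at 44.6 and 159 CPM. Angptl1 was at 21.6 and 78.2 CPM, Hmcn1 at 19.2 and 72.7 CPM, and Saa1 at 6.35 and 45.5 CPM over 35 and 72 cells. Igf1 was at 135 and 327 CPM (log2 ratio 1.27, 1.19 to 1.36). Lcn2, lipocalin-2, was at 171 and 583 CPM. Lower were Crabp1, a retinoic acid binding protein of the dermal papilla, at 106 and 10.8 CPM, and Tnn, tenascin-N, at 120 and 23.3 CPM, each from 65 or fewer cells.

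Cell cycle genes in fibroblasts had a median of -0.93 over 10 genes, 4 of them at least 2-fold lower, with Mki67 at 23.4 and 11.7 CPM and Birc5 at 30.9 and 11.8 CPM. Of 12 interferon-stimulated genes, 3 were at least 2-fold lower and none were above 0, against 35.0% of all genes in the class, with a median of -0.80. The class also carried RNA of other cells. Neutrophil markers summed to 592 CPM with blank hydrogels and 160 CPM with control DCs, and 6.30% and 0.80% of fibroblasts held an S100a8 UMI at 1000 UMIs per cell. Endothelial markers went the other way, with 7 of 10 at least 2-fold higher, yet Cdh5 had 1 and 184 UMIs, 98.9% of the latter in 5 cells, and the pericyte gene Rgs5 47 and 759 UMIs in 4 and 12 cells. The part of doublets and free RNA in the fibroblast values was not tested.

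**Figure D5:**
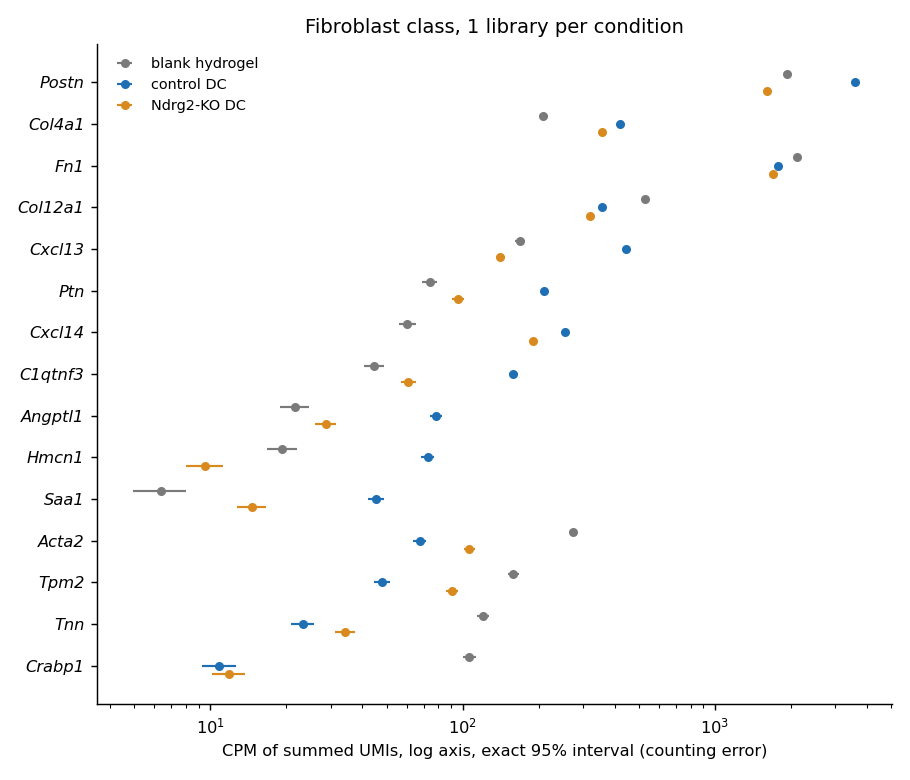
CPM of summed UMIs (x axis, log scale) of 15 genes within the fibroblast class of the 3 wound libraries, with exact 95% intervals that cover counting error only. Postn, Col4a1 and the secreted genes from Cxcl13 to Saa1 lie higher with control DCs than with blank hydrogels, and Acta2, Tpm2, Tnn and Crabp1 lie lower.

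The T cell class was small, with 69 and 81 cells and 1504 genes compared, of which 22 (1.46%) were at least 2-fold higher and 26 (1.73%) at least 2-fold lower. Cd4 was at 119 and 226 CPM within it, from 64 and 147 UMIs, a log2 ratio of 0.93 (0.50 to 1.38). Of the Cd4 UMIs, 45.3% with blank hydrogels and 29.9% with control DCs lay in 5 cells. Without the 5 cells with most UMIs of the gene, the log2 ratio of Cd4 was 1.29, and in the class called after drawing to 500 UMIs it was 0.07.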

How the data were processed

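Single-cell RNA sequencing libraries were made from digested day 10 wound tissue with the 10x Genomics 3' v3 chemistry. The authors deposited filtered matrices of raw UMI counts per gene and barcode, not normalized; the file headers name Cell Ranger 6.0.0, whereas the methods name an earlier version, and the labels and the methods name different mouse genome builds. Groups were taken from the labels. Members and gene lists were chosen with earlier results of these data known.

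Barcodes with at least 300 genes, fewer than 100000 UMIs and less than 10% mitochondrial UMIs were kept. Kept cells held 34905741 (blank hydrogel) and 29675507 (control DC) UMIs. Cells were drawn to 1000 UMIs and classed by marker lists, which give rebuilt and not the authors' cell types. UMI counts were summed over all cells, over cells with a Ptprc UMI and within classes, and scaled to 1000000 UMIs (CPM). Genes with at least 100 UMIs over both libraries (20 for list members) were compared, with exact Poisson, Clopper-Pearson and conditional binomial 95% intervals; a value of 0 was set to 3 UMIs for folds. Doublets were scored with Scrublet, which called 0 and 17 cells and has not worked in the blank hydrogel library, so none were removed; an alternative left out the highest 6% of scores. Genes were named when they were among the 15 (within classes, 10) highest or lowest ratios with at least 200 (100) UMIs in 1 library, or belonged to a list, leaving out mitochondrial, ribosomal protein and unnamed gene models and, within a class, its own markers; further members were named after their values were seen. Coordinates are from GENCODE M21 (GRCm38). Python 3.11.15, numpy 2.4.6, scipy 1.17.1, pandas 2.3.3 and scanpy 1.11.5 were used. The calling and interval steps were checked on simulated data. Alternatives changed the filters, the thinning depth, the marker minimum, the scaling, doublets and the Ptprc gate.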

Additional observations from a re-analysis of the deposited data

Results flagged for a closer look

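Genes that differed by at least 2-fold in opposite directions in 2 classes were singled out; each class had 1 library per condition, so these differences were not tested. Between neutrophils and macrophages, the control DC over blank hydrogel log2 ratio differed by -3.90 for Hspa1a, which was at 128 and 24.7 CPM in neutrophils and at 311 and 896 CPM in macrophages, and by -3.87 for Hspa1b. The difference was 2.63 for the haemoglobin gene Hbb-bt.

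Between neutrophils and fibroblasts, the ratios differed by 3.55 for Chil3, a chitinase-like protein of myeloid cells, at 64.4 and 193 CPM in neutrophils and at 13.2 and 3.39 CPM in fibroblasts. They differed by 6.17 for Hbb-bt, by 4.13 for the elastase Mmp12, by -3.34 for the chemokine Ccl5 and by 2.12 for the chemokine Ccl6.

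Between macrophages and fibroblasts, the ratios differed by -3.91 for Lcn2, at 9.88 and 2.25 CPM in macrophages and at 171 and 583 CPM in fibroblasts. They differed by -2.94 for Cd36 and by -3.59 for Cxcl9, an interferon-gamma-induced chemokine, at 56.6 and 13.2 CPM in macrophages and at 42.3 and 119 CPM in fibroblasts.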

How the results depend on the processing

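Of 136 summary values recomputed under the alternatives, 113 stayed within 1.5-fold or the interval of the first value and 23 moved. Of 1270 values of named genes, 825 stayed within the interval, 437 moved out of it and 8 of at least 2-fold changed sign; at the same class mix 71 of 88 moved and 4 changed sign. Whole-tissue counts of genes at least 2-fold higher and lower became 1327 and 176 as a mean over cells (which moved the median of all genes from 0.03 to 0.24), 140 and 125 at the same class mix, and 212 and 240 with at least 400 UMIs. Among cells with a Ptprc UMI they became 296 and 123, 86 and 119, and 69 and 77 under those settings; the lower count was 108 when Ptprc was read after drawing and 311 without the 5 cells with most UMIs of each gene, an alternative chosen after seeing the data. With all barcodes the log2 ratio of shares was -1.17 for neutrophils, 0.15 for macrophages and 1.01 for fibroblasts. Without those 5 cells, neutrophils had 11 genes higher and 912 lower, and T cells 55 higher; removing 5 cells takes a larger share of a smaller class. Without the highest 6% of doublet scores, 44 genes were higher in fibroblasts. In T cells, 9 genes were lower with at least 4 markers and 10 after drawing to 500 UMIs.

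Of ratios past 2-fold, the sign changed for Cfd (-0.77 under 5% mitochondrial UMIs, -0.22 without the highest 6% of doublet scores, -1.09 without the 5 cells), at the same class mix for S100a8 (0.24), S100a9 (0.29), Ccl4 (0.20) and Nlrp3 (0.0057), and for Retnla in cells with a Ptprc UMI (-0.35 when Ptprc was read after drawing). Smaller ratios changed sign too, among them Col12a1 (-0.56) and Ptgs2 (-0.09) in the whole tissue at the same class mix. The causes were not tested. No paired analysis was possible because each condition had 1 library. Animal-to-animal spread is unknown, and classes under 100 cells resolve only large ratios.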

Other observations

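Keratin genes and Il12b came from few cells. Of the Krt71 UMIs, a keratin of the hair follicle sheath, 3235 were counted with blank hydrogels and 1 with control DCs, and 86.3% of the former lay in 5 cells. Krt16, a keratin of wounded epidermis, had 22 and 336 UMIs, 90.2% of the latter in 1 cell. Il12b, a subunit of interleukin-12 and interleukin-23, had 230 and 13 UMIs, with 96.1% of the former in 5 cells.

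Within monocytes, 6 of 7 measured MHC class II genes were above 0, against 42.7% of 3433 genes, with sums of 10877 CPM with blank hydrogels and 14930 CPM with control DCs. Within the 69 and 81 T cells their sums were 1420 and 60.0 CPM, but 1 cell with blank hydrogels held 94.2% of the Cd74 UMIs and 94.9% of the H2-Aa UMIs, and without the 5 cells with most UMIs of the gene the log2 ratios were -0.27 and 0.32.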
